A study of Mus musculus with 8 samples.

Results

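The genes described here are minK (Kcne1) and the potassium channel genes it works with: its family members Kcne2, Kcne3 and Kcne4 and the pore-forming genes Kcnq1 and Kcnh2. They were chosen by gene name, and every non-control probe that the array files give these names was used, which made 8 probes of 6 genes among 41174 non-control probes. The data are 1-colour expression arrays of mouse heart cells from E10.5 embryos. All embryos carried the minKGFP transgene, a bacterial artificial chromosome whose green fluorescent protein (GFP) reports minK activity, so both groups carry it and no sample without it was among those analysed. Hearts were digested to single cells and sorted by brightness into 4 GFP-high samples, labelled as conduction system cells, and 4 GFP-low samples, labelled as chamber myocardium. The labels call them biological replicates and give neither the strain nor the number of embryos in a sample, and they do not say where the sort gates lay.

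Heart cells end each beat by letting potassium flow out through voltage-gated channels. KCNQ1 forms the pore of the slow delayed rectifier current and KCNH2 (ERG) that of the rapid one, while the KCNE proteins are small single-span subunits that change how fast and how far such pores open. MinK assembles with KCNQ1 to give the slow current its slow opening, and in the mouse its regulatory sequences have been used to mark the conduction system, the tissue that starts and spreads the heartbeat.

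The probes are 60-base oligonucleotides, and what each of them reads matters most for Kcne1, whose probes gave differences of unequal size, and for Kcnh2. Of each probe a stretch of 30 bases is shown, and the Kcnh2 probe is shown whole. The files give coordinates on mouse build mm9. Kcne1 probe 1 is at chr16:92346251-92346310 and Kcne1 probe 2 at chr16:92348745-92348804, 2435 bases apart and both listed in minus-strand order. The Kcnh2 probe covers chr5:23827188-23827460, a span of 273 bases for 60 bases of probe, so it bridges a gap in the genome as a probe across spliced exons does. Capitals in the Kcne1 probes mark AATAAA, the common polyadenylation signal, or its reverse complement TTTATT. As both probes are listed in the same order, the AATAAA of probe 1 and the TTTATT of probe 2 cannot both read as that signal. The marks do not place either probe at the end of a transcript.
Kcne1 probe 1, bases 1 to 30: tataaaacaatAATAAAgaagatttaaata
Kcne1 probe 2, bases 31 to 60: agtcgcatgcctgccatagtcTTTATTgta
Kcnh2 probe, bases 1 to 60: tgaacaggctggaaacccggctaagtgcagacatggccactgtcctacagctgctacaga
Of the 18482 probes tested below, 4.70% held AATAAA, 3.71% held TTTATT and 8.18% held at least one of them. GC made up 23.3% of Kcne1 probe 1 and 45.0% of probe 2, where the median tested probe had 43.3% and 0.411% of tested probes had as little GC as probe 1.

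Levels are log2 of the processed signal minus the 75th percentile of the array, so 0 is that percentile of the array's own spots. Detection varied, with 36.3% (GFP-high replicate 3) to 50.7% of spots well above background. Probes detected in this way on 4 or more arrays were tested with limma across all 18482 such probes, with adjusted p under 0.05 (Benjamini-Hochberg) as the threshold. Of the 8 probes of interest, 5 probes of 4 genes met this filter, and the Kcne2 probe and both Kcne3 probes did not. All 12 cardiomyocyte markers looked up, among them Tnnt2, Actc1 and Myh6, were tested in both groups. Among conduction region markers 12 of 13 genes had a tested probe, while Shox2 was detected on none of the arrays. Of the 16 tested probes 13 had a positive difference, with a median of 0.57 over the list. The negative ones were both Hcn4 probes (-0.65 and -0.60) and the Isl1 probe (-0.38). The chamber markers had a median of -0.57 over 18 probes, against 0.13 for all tested probes, and no probe of any marker list passed the threshold. At an unadjusted limma p under 0.05 there were 6 conduction region and 6 chamber probes, against 13.9% of all tested probes. The lists were chosen with earlier results of these data known, so these values are no independent check of the labels.

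Kcne1 had all GFP-high arrays above all GFP-low arrays with either probe, and passed the test on 1 of them, while none of its partners passed. The log2 difference was 2.83 ± 0.29 for probe 2 (SE, 7.13-fold, limma adjusted p = 0.0311), and 1.29 ± 0.36 for probe 1 (2.45-fold, limma adjusted p = 0.225). Kcnq1, Kcnh2 and Kcne4 had differences of 0.21, 0.11 and 0.03. Thus 1 of the 5 tested probes passed the threshold, where 0.0379% of all tested probes did (0.0162% higher and 0.0216% lower). With the slide as a block it did not pass (limma adjusted p = 0.0503). Because the cells were sorted on a reporter of this very gene, the Kcne1 difference only checks the sort. Whether the Kcne1 probes also read RNA from the artificial chromosome was not tested. As RNA was taken from many cells at once, fewer expressing cells and less RNA per cell cannot be told apart.

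On Kcne1 probe 2 the GFP-high arrays read 1.81, 2.52, 2.60 and 2.03 in replicates 1 to 4. The GFP-low arrays read -0.42, -0.89, -0.77 and -0.30. The groups were thus more than 2 units apart at their nearest arrays, and every array was well above background. On probe 1 the GFP-high arrays read 2.03, 1.74, 2.06 and 0.83, and the GFP-low arrays 0.68, 0.25, 0.70 and -0.13. Here the groups stayed apart only narrowly, since GFP-high replicate 4 lay just above GFP-low replicates 1 and 3. Of all tested probes 8.64% had groups without overlap, 5.18% with GFP-high above and 3.46% with GFP-high below. Within slide 1, which held replicates 1 and 2 of both groups, probe 2 differed by 2.82 and within slide 2 by 2.85; for probe 1 the values were 1.42 and 1.16. The excess of probe 2 over probe 1 was 1.54 on the log2 scale and did not pass an exact two-sided permutation test (p = 0.0571, 4 against 4 arrays), in which 0.0286 is the smallest possible p. The low GC content of probe 1 goes with the smaller difference, and its part in it was not tested.

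The call of Kcne1 probe 2 was lost on leaving out any single array other than GFP-high replicate 3. Without GFP-high replicate 1, 2 or 4 its limma adjusted p was 0.0663, 0.0788 and 0.0837, without GFP-low replicates 1 to 4 it was 0.0985, 0.131, 0.124 and 0.0973, and without GFP-high replicate 3 it was 0.0331. The difference itself stayed between 2.71 and 2.98 in these fits. Of the leukocyte markers, Lyz2 differed between the groups without overlap, at 3.35 to 3.81 in GFP-high and 1.75 to 2.32 in GFP-low (limma adjusted p = 0.106). Of all tested probes 5.18% had GFP-high above GFP-low in this way. The signal summed over the list, in units of each array's 75th percentile, was mostly that of Lyz2 and ran from 12.0 to 16.2 in GFP-high and from 3.97 to 6.49 in GFP-low. Cd68, the only other one of 7 leukocyte genes with a tested probe, overlapped between the groups (limma adjusted p = 0.546). Ptprc, Csf1r and Itgam were detected on no array. Aif1 was above background on 2 GFP-high arrays and 1 GFP-low array with its first probe, and on 1 GFP-low array with its second. Adgre1 was above background on 1 GFP-low array. The part of such cells in the Kcne1 difference was not tested.

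**Figure D1:**
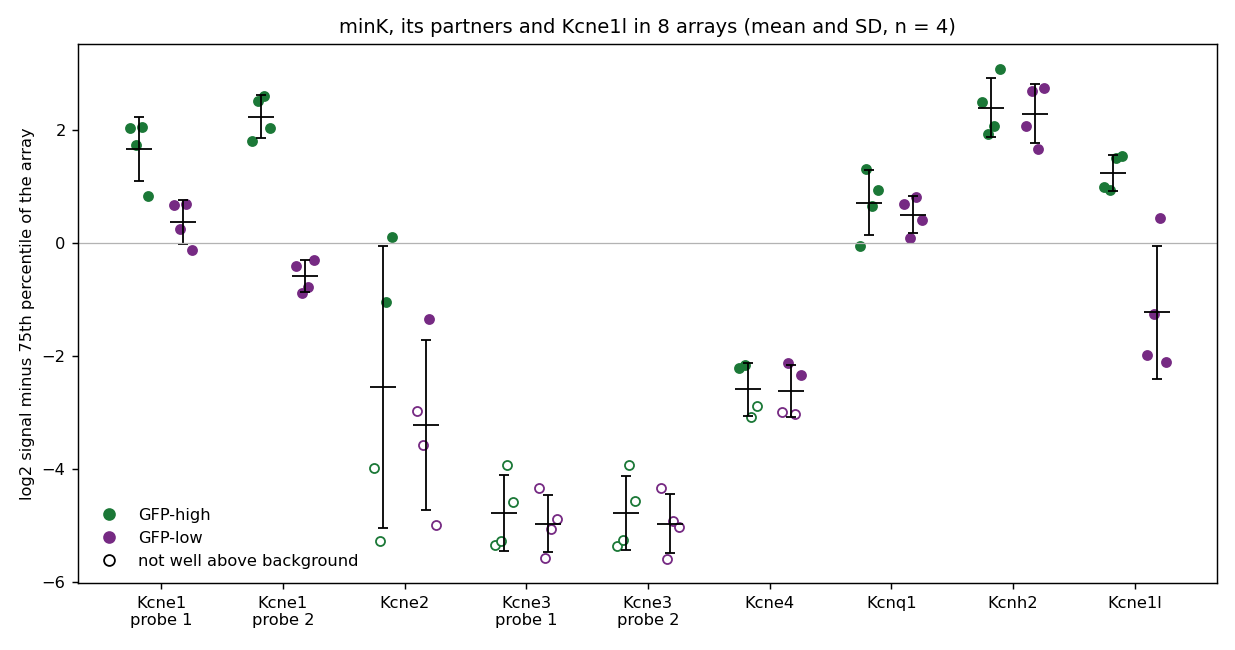
Level of each probe of the 6 genes and of Kcne1l in the 8 arrays, as log2 signal minus the array's 75th percentile; points are arrays, bars the mean and SD of 4 arrays, and open points were not well above background. Both Kcne1 probes and Kcne1l separate the groups, whereas Kcne4, Kcnq1 and Kcnh2 overlap and Kcne3 is below background everywhere.

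Kcnq1, the pore partner of minK, was measured on all 8 arrays by 1 probe (chr7:150612740-150612799). GFP-high replicates 1 to 4 read -0.06, 1.32, 0.66 and 0.93, and GFP-low replicates 0.70, 0.09, 0.81 and 0.41. The groups overlapped throughout: the highest and the lowest array were both GFP-high. The difference was 0.21 ± 0.35 (SE, limma adjusted p = 0.802), with a 95% interval from -0.59 to 1.01. The interval thus holds differences of either sign.

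Kcnh2, the pore of the rapid current, was also measured on every array. It read 2.50, 1.93, 2.07 and 3.09 in GFP-high and 2.07, 2.69, 1.66 and 2.74 in GFP-low. Again the arrays of both groups interleaved, and the difference of 0.11 ± 0.37 (SE, limma adjusted p = 0.912, 95% interval from -0.75 to 0.96) changed sign between slides, at -0.16 within slide 1 and 0.38 within slide 2.

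The Kcne1 signal was also set against the pore genes within each array, which removes the scaling of the array and asks whether the subunit and its pore changed unequally. The log2 ratio of Kcne1 probe 2 to Kcnq1 was 1.53 ± 0.44 in GFP-high and -1.10 ± 0.37 in GFP-low (SD, n = 4 each, exact two-sided permutation p = 0.0286, the smallest possible). Against Kcnh2 the same probe gave -0.16 ± 0.84 and -2.89 ± 0.54 (SD, n = 4 each, exact permutation p = 0.0286). The arrays of the groups did not overlap in either ratio. With probe 1 they did overlap: the ratio to Kcnq1 differed by 1.09 (exact permutation p = 0.0857) and that to Kcnh2 by 1.19 (exact permutation p = 0.143). Unequal change of minK and its pores therefore reached the smallest possible p with 1 of the 2 Kcne1 probes only, and it rests on the gene used for the sort. The ratios of 2 different probes carry each probe's own brightness, so only their change between groups can be read. In all, 7 such ratios were computed.

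**Figure D2:**
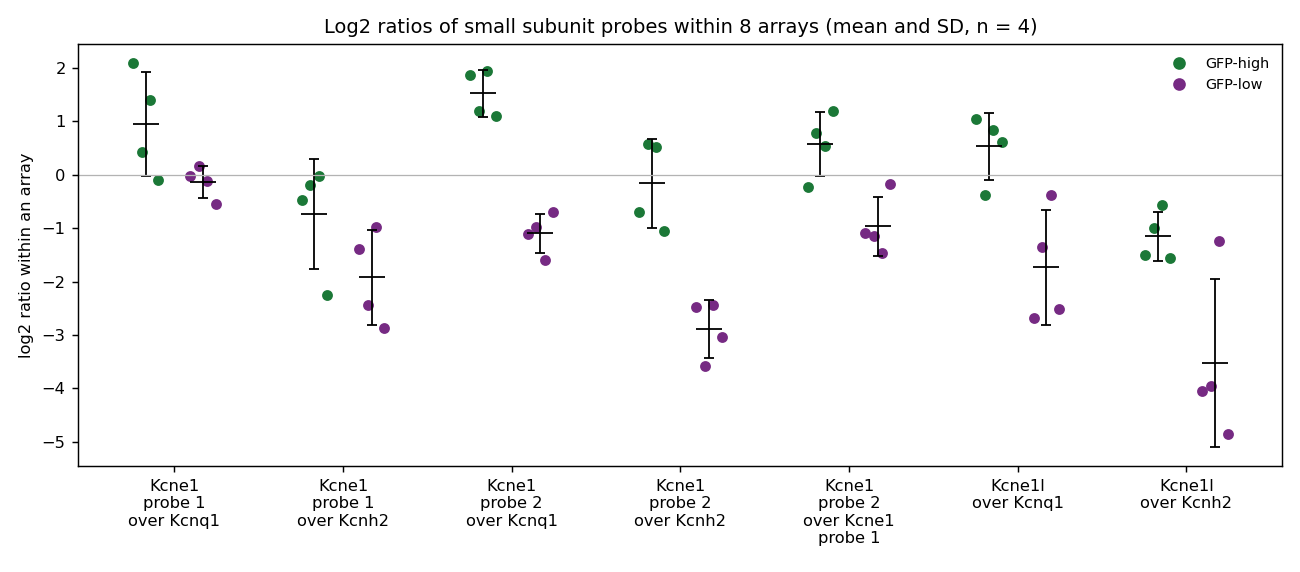
Log2 ratios within an array of Kcne1 and Kcne1l probes to Kcnq1 and Kcnh2, and of Kcne1 probe 2 to probe 1; points are arrays and bars the mean and SD of 4 arrays. The groups are apart for Kcne1 probe 2 over either pore gene and for Kcne1l over Kcnq1, and overlap in the others.

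The other small subunits were dim. Kcne4, which in heterologous cells can silence KCNQ1 currents, was well above background on GFP-high replicates 1 and 2 and GFP-low replicates 2 and 4 only. Its probe (chr1:78815838-78815897) read -2.22, -2.17, -3.09 and -2.89 in GFP-high and -2.99, -2.13, -3.02 and -2.34 in GFP-low. The groups had nearly the same mean, and the difference of 0.03 ± 0.35 (SE, limma adjusted p = 0.977) had a 95% interval from -0.76 to 0.82.

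Kcne2, a subunit known to modify ERG, KCNQ1 and HCN channels, was well above background on 3 arrays, GFP-high replicates 3 and 4 and GFP-low replicate 3. All of these arrays were on slide 2, and slide 1 gave no measured value in either group. The probe (chr16:92298155-92298214) read -1.04 and 0.10 on the former arrays and -1.35 on the latter. The remaining readings lay between -5.27 and -2.97, so the probe was not tested and no fold is given. Whether the slide or the samples account for this pattern was not tested.

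Kcne3, which in epithelia holds KCNQ1 channels open, was not well above background on any of the 8 arrays with either of its 2 probes (chr7:107332940-107332999 and chr7:107333062-107333121). Their readings ran from -5.60 to -3.93, all below detection, and carry no order between the groups.

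The members were compared with a list of relatives from the KCNE, KCNQ and KCNH families. Of 10 such genes on the array 3 had a tested probe, and none passed the threshold (1 at an unadjusted limma p under 0.05). Kcne1l (also called Kcne5), the X-linked relative of minK whose human counterpart reduces KCNQ1 current, had the largest difference among them, 2.48 ± 0.55 (SE, 5.56-fold, limma adjusted p = 0.177, unadjusted p = 0.00172, chrX:138739364-138739423). Of all tested probes 5.18% had GFP-high above GFP-low without overlap. A stretch of the Kcne1l probe is shown since it is the only family member besides minK, among those tested, whose groups did not overlap.
Kcne1l probe, bases 1 to 30: cccaaatgcatctcttatattggttcagtt
GFP-high replicates read 0.99, 0.94, 1.50 and 1.54, and GFP-low replicates -1.99, -1.26, 0.43 and -2.11. Every array was well above background. The GFP-high arrays lay close together and 3 of the GFP-low arrays far below them, while GFP-low replicate 3 lay just under the lowest GFP-high array. The difference was 2.59 within slide 1 and 2.36 within slide 2, and it was 3.03 without GFP-low replicate 3. With normexp background correction it was 1.52 (limma adjusted p = 0.115), and it did not pass in any of 23 alternatives. Relative to Kcnq1 within each array Kcne1l gave 0.53 ± 0.63 in GFP-high and -1.73 ± 1.08 in GFP-low (SD, n = 4 each, exact two-sided permutation p = 0.0286), and relative to Kcnh2 the groups overlapped (exact permutation p = 0.0857). The lowest GFP-high array and the highest GFP-low array were nearly level in the Kcnq1 ratio, at -0.38 each to 2 decimals. As Kcnq1 itself differed by only 0.21, this ratio largely restates the Kcne1l difference and is no separate support. Kcnh7, a neuronal ERG gene, was detected in 4 GFP-low samples and 1 GFP-high sample, so it met the filter through GFP-low and its value of -1.35 ± 0.75 (limma adjusted p = 0.445) sets measured signals against mostly unmeasured ones. Kcnh3, a channel gene of the brain, had 0.44 ± 0.40 (limma adjusted p = 0.624). With normexp the values of Kcnh7 and Kcnh3 were -0.033 and 0.34. The relatives Kcnh4, Kcnh5, Kcnh6 and Kcnh8 were detected on no array.

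Proteins that regulate or anchor these channels were next. Of 21 genes on this list 20 had a tested probe, making 32 probes, and no probe passed the threshold. At an unadjusted p under 0.05 there were 9 of them, where 13.9% of all tested probes had such a p, and 14 probes had positive and 18 negative differences, with a median of -0.29 against 0.13 for all tested probes. Fhl2, a LIM-domain protein that binds minK, had 1.15 ± 0.23 (SE, 2.22-fold, limma adjusted p = 0.136). Its GFP-high arrays read 5.28, 5.61, 5.28 and 5.22 and its GFP-low arrays 4.15, 4.30, 4.15 and 4.17, so that the groups did not overlap and the spread within each was small. GFP-high lay above GFP-low without overlap in 5.18% of all tested probes. With eBayes trend and robust settings Fhl2 passed at the same difference (limma adjusted p = 0.0222). Its 2 other probes were below background on all but 1 array. Prkar2a, a regulatory subunit of protein kinase A, the kinase that enhances the slow current, had negative values on all 3 of its tested probes (the first above background on 2 of 4 GFP-high arrays), -2.50, -1.47 and -0.79, with limma adjusted p of 0.141, 0.247 and 0.428; with normexp background correction the values were -0.77, -0.70 and -0.67. Hsp90aa1, a chaperone that ERG needs to mature, had -1.53 ± 0.42 (SE, limma adjusted p = 0.224). Its GFP-high arrays read 1.59 to 2.76 and its GFP-low arrays 2.77 to 4.48, touching at GFP-high replicate 4 and GFP-low replicate 1.

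Other channels that have been reported with KCNE subunits were mostly dim: 6 of 14 genes had a tested probe, and none of the 7 probes passed the threshold, or had an unadjusted limma p under 0.05. The pacemaker channel gene Hcn4 had -0.65 ± 0.45 and -0.60 ± 0.55 on its 2 probes (SE, limma adjusted p 0.536 and 0.636). Its relative Hcn2 had 0.97 ± 0.57 (limma adjusted p = 0.461), with 0.18 within slide 1 and 1.77 within slide 2 and groups that did not overlap. Such a separation, with GFP-high above, held for 5.18% of all tested probes. On GFP-low replicate 3, the lowest array, the Hcn2 probe was not above background. Without that array the difference was 0.37, and with normexp it was 0.43. Kcnc4 had 0.38 ± 0.34 (limma adjusted p = 0.628). The median of the list was 0.24.

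**Figure D3:**
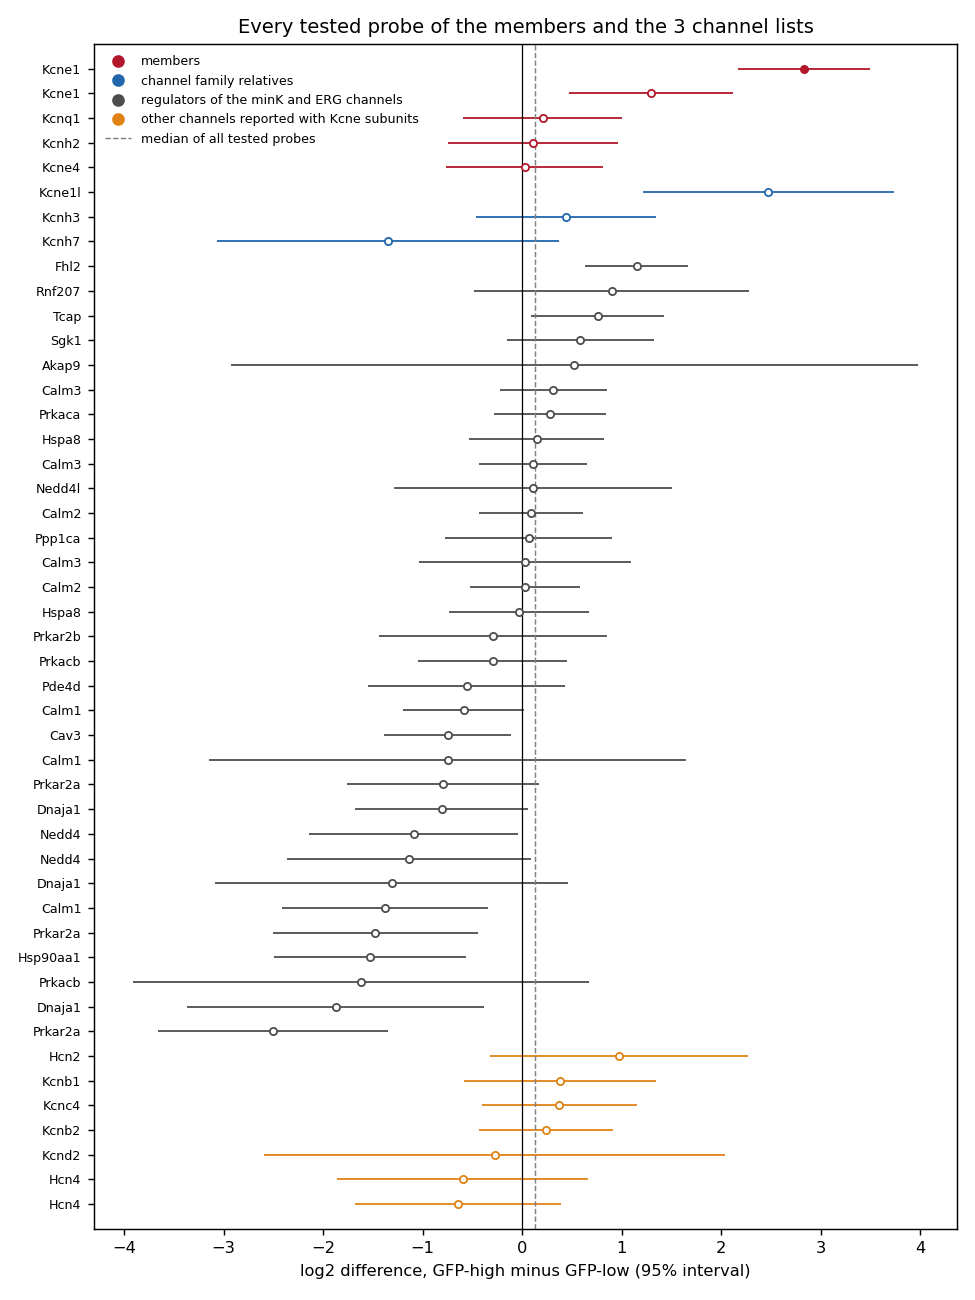
Log2 difference, GFP-high minus GFP-low, with its 95% interval for each tested probe of the members and of the lists of relatives, regulators and other channels; filled points passed the threshold and the dashed line is the median of all tested probes. The only filled point is Kcne1 probe 2, at 2.83, and Kcne1l, at 2.48, is the nearest to it.

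As the reporter is an artificial chromosome of the Kcne1 region, the genes that the files place within 250 kb of the Kcne1 probes were described too. The labels do not say which of them the artificial chromosome carries. Besides Kcne1 there were 11 probes of 7 genes, of which 8 probes of 5 genes were tested and none passed the threshold (4 at an unadjusted limma p under 0.05, where 13.9% of all tested probes had such a p). Rcan1, an inhibitor of the phosphatase calcineurin and the nearest gene on the side of higher coordinates at 44.0 and 47.4 kb, had 1.11 ± 0.28 and 0.93 ± 0.29 on its 2 probes (SE, limma adjusted p 0.197 and 0.253). Its GFP-high arrays lay above all GFP-low arrays on both, where 5.18% of all tested probes had such a separation. The unnamed transcript 2410124H12Rik had 1.41 ± 0.50 (limma adjusted p = 0.281), and the intracellular chloride channel gene Clic6 had 2.39 ± 0.85 on one probe and 0.69 ± 0.52 on the other (limma adjusted p 0.283 and 0.561). The 2410124H12Rik probe and the Clic6 probe with 2.39 were each above background on 3 GFP-high arrays but only 1 GFP-low array, so these values are set against mostly unmeasured signals. These last 3 probes had overlapping groups, and with normexp 2410124H12Rik had 0.71 and Clic6 0.98 and 0.44. On the other side the values were near 0, at -0.05 ± 0.25 for Smim11, 33.0 kb away, and at 0.06 ± 0.35 and 0.15 ± 0.43 for the mitochondrial ribosomal gene Mrps6. Kcne2, 48.0 kb away on that side, and Fam243 were not tested for lack of signal. Whether the 2 sides differ was not tested.

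**Figure D4:**
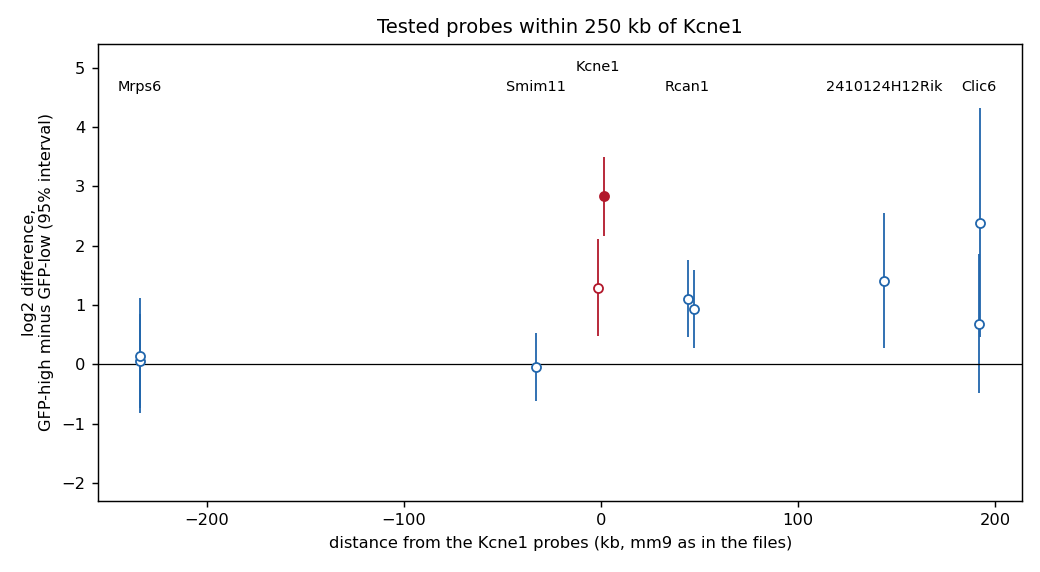
Log2 difference, GFP-high minus GFP-low, with its 95% interval against distance in kb from the Kcne1 probes, for tested probes within 250 kb; red is Kcne1 and filled points passed the threshold. Rcan1 at 44.0 kb has 1.11 while Smim11, 33.0 kb away on the other side, has -0.05.

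The profiles nearest to Kcne1 were found by centring each tested probe on its own mean and taking the root mean square difference from the mean of both Kcne1 probes over the 8 arrays. Since this mean separates the groups, any probe higher in GFP-high by a similar amount comes near it, and the ranking is a description only. The 5 nearest genes were Pcsk6, a proprotein convertase, at 0.253, Ppp1r17, a phosphatase inhibitor called Gsbs in the files, at 0.308, Csf1, a macrophage growth factor, at 0.319, Gas6, a ligand of receptor tyrosine kinases, at 0.331, and Cacna2d2, a calcium channel subunit, at 0.343. In the fit they had differences of 2.09, 1.74, 1.96, 1.60 and 1.87, with limma adjusted p of 0.0578, 0.0890, 0.167, 0.137 and 0.0618, so none passed, although Pcsk6 passed in 6, Cacna2d2 in 5 and Ppp1r17 in 3 of 23 alternatives. Among 18471 probes with a value on all arrays, Kcne1l ranked 1240, at 0.826, and Kcnq1, Kcne4 and Kcnh2 ranked 5419, 8668 and 9604. A probe with a small group difference cannot lie near a profile that separates the groups. The ranks of Kcnq1, Kcne4 and Kcnh2 therefore restate their small differences and test nothing further.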

How the data were processed

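Spot intensities were deposited by the authors as 1-colour Agilent scanner outputs; per the file headers they came from Feature Extraction 10.5.1.1, which subtracted background, detrended and replaced the lowest values by surrogates (34.8% to 49.4% of spots per array). Per the labels' protocols, RNA was amplified before labelling, and its part in the spread of dim probes was not tested. The deposited whole-series table held the same intensity values. With R 4.3.3 and limma 3.58.1, log2 signals were centred on each array's 75th percentile, outlier spots left out and spots of a probe averaged; none was saturated. The groups were compared with lmFit and eBayes over 18482 probes, group being the sole term; p-values measure the spread between the deposited samples. Exact permutations used scipy 1.17.1. Names followed the GRCm38.p6 table (25097 of 41174 probes matched); other probes kept the files' names. The text names all members, from each channel list the 3 genes of smallest p, all neighbours within 250 kb and the 5 nearest profiles. Some family members are not reported here. Members and lists were chosen with earlier results of these data known. The fit was tested on simulated data. Normalization, background, filter, block, probe and left-out array were varied.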

Additional observations from a re-analysis of the deposited data

Results flagged for a closer look

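Single arrays that stood far from the other 3 of their group, by Dixon's criterion for 4 values, were found in 3 of 60 groups of arrays examined, and chance alone gives about 1 in 20. Fhl2 stood out in both groups, with GFP-high replicate 2 at 5.61 (nearest other 5.28) and GFP-low replicate 2 at 4.30 (nearest other 4.17), each the highest of its group. Hcn2 was lowest in GFP-low replicate 3, at -3.79 where the nearest array read -1.43, and its probe was not above background on that replicate.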

How the results depend on the processing

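The difference of Kcne1 probe 2 stayed positive, from 2.20 to 2.98, in all 21 alternatives that read this probe alone, and its limma adjusted p ran from 0.0105 to 0.559 and passed in 9 of them. The mean of both Kcne1 probes differed by 2.06 (limma adjusted p = 0.0399). The count of member probes past the threshold (1 in the report) was 0 without the filter on dim probes, with the slide as a block, with the replicate block, on slide 1 only, on slide 2 only and with the brightest probe per gene, where Kcne1 is read by probe 1. In these fits 1 or 2 member probes had an unadjusted limma p under 0.05. The adjusted p of Kcne1 probe 2 was 0.0748 without the filter, 0.0503 with the slide as a block and 0.156 with the replicate block. Leaving out 1 array gave 0 to 1. The count near Kcne1 (1) moved the same way, to 0 in the same 6 settings and from 0 to 1 on leaving out 1 array. Among the other channel genes (0) it was 1 with the common floor and 1 with trend and robust fitting, Fhl2 each time. Over all probes (7) the count was 20 with normexp, 17 with quantile normalization, 60 with the common floor, 4 without the filter, 14 for probes detected on all 8 arrays, 4 with the slide as a block, 0 with the replicate block (3220 at an unadjusted p under 0.05), 25 with trend and robust fitting, 0 on slide 1 only (2227) and 0 on slide 2 only (1191), 16 with the brightest probe and 20 with the mean over probes of a gene. Leaving out 1 array gave 0 to 22, with 22 only without GFP-high replicate 3 (1788 to 3543 at an unadjusted p under 0.05). The higher and lower calls split 3 and 4 in the report, 13 and 7 with normexp, 6 and 11 after quantile normalization, 37 and 23 with the common floor, 12 and 2 for probes detected on all 8 arrays, 2 and 2 without the filter, 0 and 4 with the slide as a block, 17 and 8 with trend and robust fitting, 9 and 7 with the brightest probe, 10 and 10 with the mean over probes, and 3 and 19 without GFP-high replicate 3. Same-numbered arrays had deviations from the group means that correlated at 0.12, 0.12, 0.29 and 0.05, so the numbers were not taken as pairs, although each GFP-high array correlated best with its own number, a hint from the data only. Small differences changed sign. Kcne4 had -0.012 when scaled on the median of always detected probes, -0.31 on slide 2, and -0.11 to 0.20 on leaving out 1 array. Kcnh2 had -0.033 with normexp, -0.16 on slide 1 and -0.12 to 0.26. Mrps6 had -0.0079 with quantile normalization, -0.066 on slide 2 and -0.12 to 0.31 on its first probe, and -0.011 with normexp and -0.19 to 0.39 on its second. Smim11 had 0.063 on slide 1 and -0.14 to 0.056. With normexp the excess of Kcne1 probe 2 over Kcnq1 was 2.15. The causes were not tested. Dim probes limit Kcne2, Kcne3 and Kcne4.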
